A study of Mus musculus with 20 samples.

Results

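Glucuronidation and sulfation are the conjugation steps by which the liver makes lipid-soluble molecules water-soluble enough for bile or urine. UDP-glucuronosyltransferases (UGTs) sit in the endoplasmic reticulum and transfer glucuronic acid from UDP-glucuronic acid to bilirubin, steroids, bile acids and drugs, whereas cytosolic sulfotransferases (SULTs) transfer sulfate from the donor PAPS to phenols, steroids and bile acids. The 10 genes described here, 7 UGTs (Ugt1a1, Ugt2a3, Ugt2b1, Ugt2b5, Ugt2b34, Ugt2b35 and Ugt2b36) and 3 SULTs (Sult1a1, Sult1d1 and Sult2a8) form one functional family. They were picked by symbol and not by a threshold on measured values, although earlier results of these data were known. They are 10 of 54532 genes in the count table, and all 10 were among the 12289 genes that passed the filter on low counts (above 2 CPM, counts scaled to library size, in at least 3 mice).

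Liver RNA was sequenced from 20 male C57BL/6 mice in 4 groups of 5, bought from The Jackson Laboratory as C57BL/6J. Every animal first became obese over 12 weeks on a high-fat diet (HFD) and then had either Roux-en-Y gastric bypass (RYGB), which reroutes food past most of the stomach and the upper small intestine, or a sham operation. For the 8 weeks after surgery the mice ate either chow or HFD, giving Sham Chow and Sham HFD mice on one side and RYGB Chow and RYGB HFD mice on the other. Because all groups share the earlier HFD, Sham Chow is a group returned from HFD to chow and not a never-obese control. The study reports that Sham HFD mice were heavier than every other group and treats this as a confounder. In comparisons with Sham HFD, surgery or diet therefore cannot be told apart from body weight. No age was given in the labels, and 1 library stands for 1 mouse.

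The libraries held 14604854 to 22537498 assigned counts, with TMM scaling factors from 0.916 to 1.13. The 10 genes were well covered, with between 1541 counts (Sult1d1) and 23265 counts (Sult2a8) in a mouse. Summed over 8 hepatocyte markers such as Alb, the level was 79952 to 131920 CPM in the 20 mice, while the 7 bile duct markers summed to 17.8 to 59.3 CPM. The 7 gut epithelium markers summed to 38.3 to 112 CPM in Sham Chow, 44.0 to 81.4 CPM in RYGB Chow, 154 to 170 CPM in Sham HFD and 65.8 to 132 CPM in RYGB HFD. Nearly all of this was Fabp2, a fatty acid binding protein, which rose in Sham HFD relative to Sham Chow (log2 fold change 1.25, adjusted p = 4.09e-04 in edgeR) and fell in RYGB HFD relative to Sham HFD (-0.75, adjusted p = 0.0184). Vil1, Alpi and Lct were at most at 0.293 CPM in a mouse, and Sis, Cdx1 and Cdx2 were at 0 counts in all 20. Markers of other liver cells moved with diet in sham mice. In Sham HFD relative to Sham Chow, 7 of 7 stellate cell genes and 4 of 7 Kupffer cell genes rose, against 10.9% of all genes. The summed stellate levels were 139 to 229 CPM in Sham Chow and 193 to 247 CPM in RYGB Chow. They were 303 to 371 CPM in Sham HFD and 197 to 297 CPM in RYGB HFD. The summed Kupffer levels ran from 118 to 326, 232 to 577, 277 to 396 and 237 to 421 CPM in the same order. Their part in the results below was not tested, and in whole liver fewer cells of a type and less RNA per cell cannot be told apart.

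Of the 10 genes, 7 lie on chromosome 5 of GRCm38 (mm10): Ugt2b34 (86889767-86906937), Ugt2b1 (86916638-86926530), Ugt2b35 (87000860-87013275), Ugt2b36 (87065927-87092555), Ugt2b5 (87124960-87140318), Ugt2a3 (87324972-87337195) and Sult1d1 (87554645-87569027). The UGT genes of this stretch are neighbours that arose by duplication, and the coding bases of Ugt2b36 and Ugt2b5 were 88.4% identical, those of Ugt2b1 and Ugt2b34 74.5%. Ugt1a1 (1:88211959-88218997, plus strand) is the last of a row of first exons on chromosome 1 that all splice to the same later exons, so that 58.9% of its exon bases are shared on the same strand with other Ugt1a genes. Sult1a1 (7:126672865-126676432) and Sult2a8 (7:14410686-14446769) lie on chromosome 7.

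The proximal promoters of 4 of the genes are shown because their levels followed 4 different patterns over the groups, 250 bases before to 50 bases after the RefSeq start (GRCm38.p6). Capitals mark the letters AGGTCA, which nuclear receptors can bind, or GTTAAT, part of the site of the hepatocyte factor HNF1, on either strand.
Ugt1a1, chr1:88211709-88212008, plus strand: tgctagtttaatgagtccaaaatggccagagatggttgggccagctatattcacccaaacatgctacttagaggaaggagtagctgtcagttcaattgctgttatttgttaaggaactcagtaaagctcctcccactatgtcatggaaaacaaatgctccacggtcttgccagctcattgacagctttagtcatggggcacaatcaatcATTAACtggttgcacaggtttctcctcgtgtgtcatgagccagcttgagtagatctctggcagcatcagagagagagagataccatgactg
Ugt2b5, chr5:87140291-87140590, minus strand: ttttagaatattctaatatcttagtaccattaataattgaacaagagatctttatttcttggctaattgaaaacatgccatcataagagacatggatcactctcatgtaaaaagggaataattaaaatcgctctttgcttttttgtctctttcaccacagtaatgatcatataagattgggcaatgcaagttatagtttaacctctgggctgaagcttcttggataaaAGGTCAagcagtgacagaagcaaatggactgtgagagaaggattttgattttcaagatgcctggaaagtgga
Ugt2b36, chr5:87092506-87092805, minus strand: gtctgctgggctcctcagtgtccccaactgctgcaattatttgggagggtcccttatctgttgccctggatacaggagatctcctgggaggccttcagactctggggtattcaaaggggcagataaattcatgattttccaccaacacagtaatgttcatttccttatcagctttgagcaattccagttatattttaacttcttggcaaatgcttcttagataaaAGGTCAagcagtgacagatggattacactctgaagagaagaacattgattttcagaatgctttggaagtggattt
Sult2a8, chr7:14446538-14446837, minus strand: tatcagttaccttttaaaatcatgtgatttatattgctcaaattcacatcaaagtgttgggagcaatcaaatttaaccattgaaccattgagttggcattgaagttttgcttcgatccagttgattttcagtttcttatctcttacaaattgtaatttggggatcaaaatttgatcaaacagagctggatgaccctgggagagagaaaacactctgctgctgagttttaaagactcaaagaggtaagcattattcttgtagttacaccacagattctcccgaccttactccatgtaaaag

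In this window Ugt2b5 and Ugt2b36 each held 1 AGGTCA, starting at -22 and -25 from the RefSeq start, and it lies in the longest run of letters that the windows share, the 24 bases gataaaAGGTCAagcagtgacaga. Over the whole window their promoters were 61.4% identical. Ugt1a1 held GTTAAT on the other strand at -41, and the Sult2a8 window shown held neither motif; a second RefSeq start of Sult2a8 has AGGTCA at -164 and -90, and the start shown differs by 182 bases from the one in GENCODE. The 10 genes have 11 RefSeq promoters, since Sult2a8 has 2. AGGTCA was found in 4 of the 11 and in 16.3% of all 32851 mouse promoters, and GTTAAT in 4 of the 11 and in 7.10%. Of the other motifs searched on both strands, the NRF2 element TGACNNNGC was in 0 of the 11 (12.4% of all promoters), the STAT element TTCNNNGAA in 0 (8.30%), and the core GCGTG bound by AHR in 1, that of Sult1d1 (32.4%). TGAC opens both the NRF2 element and the reverse complement of AGGTCA, so these motifs can overlap, and a match of letters is a description and not a binding site.

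Levels of different genes were compared per length, as RPKM, which is CPM divided by the exon length in kilobases. In Sham Chow livers Ugt2b5, a steroid and xenobiotic UGT, had the highest mean level at 500 ± 67.4 RPKM (SD, n = 5), and its lowest mouse lay above the highest mouse of the next gene. Ugt2b36 (343 RPKM), Sult2a8 (301), Ugt2b1 (246), Sult1a1 (209), Ugt2a3 (173) and Ugt2b34 (130) followed in an order in which each overlapped the next. Ugt2b35 (64.0), Sult1d1 (50.9) and Ugt1a1 (46.3 RPKM) formed a low end that overlapped within itself and stood apart from the rest. The length used for Ugt1a1 includes the 58.9% of its exon bases shared with other Ugt1a genes. Its RPKM is too low if reads from those bases were left out, so its place is uncertain. Ugt2b5 also came first in RYGB Chow and in Sham HFD, but in both it overlapped the next gene, Ugt2b36. In RYGB HFD livers Sult2a8, a hepatic bile acid sulfotransferase, came first at 311 ± 39.3 RPKM and overlapped Ugt2b5 at 278 ± 17.3 RPKM.

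**Figure D1:**
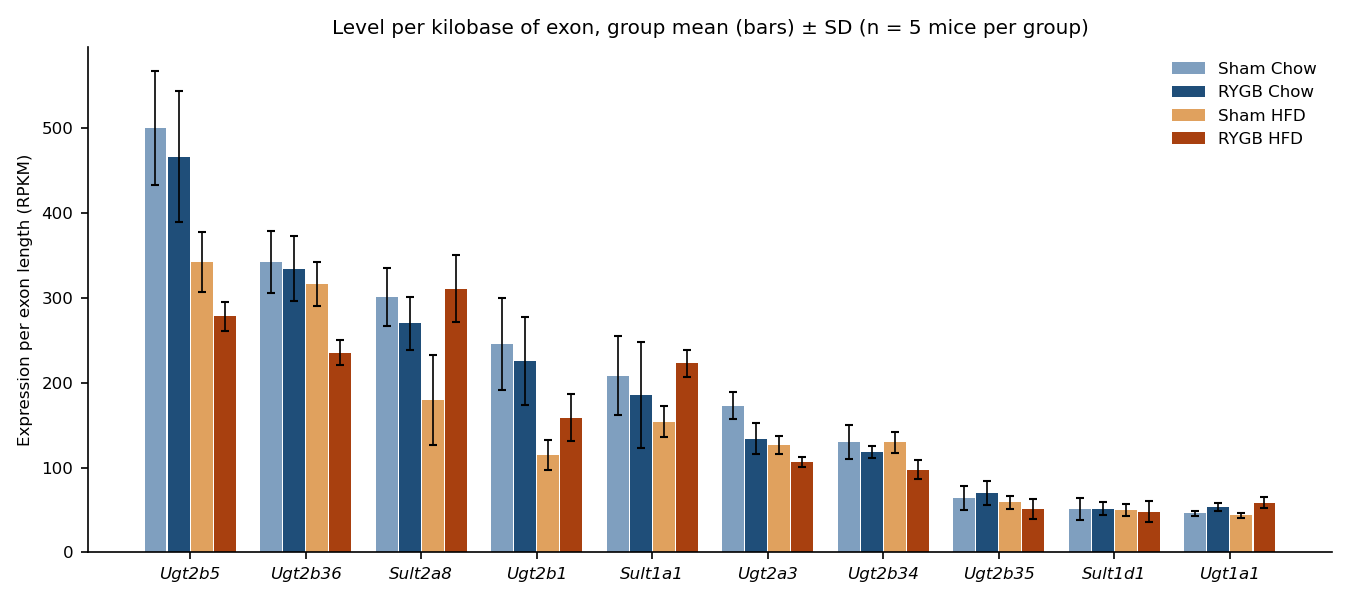
Mean level per kilobase of exon (RPKM, bars) with SD (error bars, n = 5 mice) of the 10 genes in the 4 groups, in the order of the Sham Chow means. Ugt2b5 leads in Sham Chow at 500 RPKM, and in RYGB HFD Sult2a8 at 311 RPKM is above Ugt2b5 at 278 RPKM.

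In sham-operated mice on HFD, 4 of the 10 genes fell relative to Sham Chow with an adjusted p under 0.05 by the quasi-likelihood test of edgeR (Ugt2a3, Ugt2b1, Ugt2b5 and Sult2a8), while 0 rose. Among all genes tested, 10.7% fell and 10.9% rose in this comparison. The median log2 fold change of the 10 was -0.28, against -0.00 over all genes, and the same 4 genes were the ones whose groups did not overlap, which 16.5% of all genes showed. The log2 fold change was negative for 10 of the 10 genes in the main fit and for 5 to 10 in the other settings. It was negative for 8 with limma-voom and with a filter at 5 CPM. The 5 came from scaling by library size only, where the 4 calls held. Summed over the 10 genes, the level was 4938 ± 398 CPM in Sham Chow and 3650 ± 396 CPM in Sham HFD.

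On HFD, the RYGB mice differed from the sham mice in both directions. Ugt1a1 and Sult2a8 rose and Ugt2b34 and Ugt2b36 fell in RYGB HFD relative to Sham HFD, which makes 2 of 10 higher and 2 of 10 lower, where 8.54% of all genes were higher and 7.9% lower. For 6 of the 10 genes the groups did not overlap, 3 with RYGB HFD higher and 3 with it lower, against 14.7% of all genes. The median log2 fold change of the 10 was -0.13, against 0.01 over all genes. Ugt2a3, Ugt2b1, Ugt2b5 and Sult1a1 had adjusted p between 0.0590 and 0.0657 in edgeR. When RYGB Chow replicate 3 was left out of the fit, the count became 8 of 10, 4 in each direction, and it was also 8 with DESeq2 or with a model of these 2 groups only. Cell markers moved in the same comparison: 4 of 8 hepatocyte genes rose and 1 fell, with summed levels of 79952 to 93048 CPM in Sham HFD and 109570 to 131510 CPM in RYGB HFD, and 4 of 7 stellate cell genes fell. Their part in these differences was not tested.

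In RYGB mice, Ugt2a3, Ugt2b5 and Ugt2b36 fell on HFD relative to chow and 0 of the 10 rose, against 1.65% of all genes lower and 1.99% higher. The groups of 2 of the 10 did not overlap, Ugt2b5 and Ugt2b36, and 5.05% of all genes were of that kind. The median log2 fold change of the 10 was -0.31, against 0.00 over all genes. On chow, RYGB and sham mice differed in 0 of the 10 by edgeR, where 0.0488% of all genes rose and 0.00814% fell. Ugt1a1 and Ugt2a3 had an unadjusted p under 0.05 there, DESeq2 called 1 (Ugt2a3, adjusted p = 0.0212), and Ugt2a3 was the 1 gene of the 10 without overlap, against 1.33% of all genes. The comparisons share groups of mice with each other, so their results are not independent.

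A difference between the effects of surgery on the 2 diets was tested as the surgery by diet interaction, and 1 of the 10 genes, Sult2a8, passed it, against 5.06% of all genes. This test includes the heavier Sham HFD group, so the limit on body weight holds for it too.

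**Figure D2:**
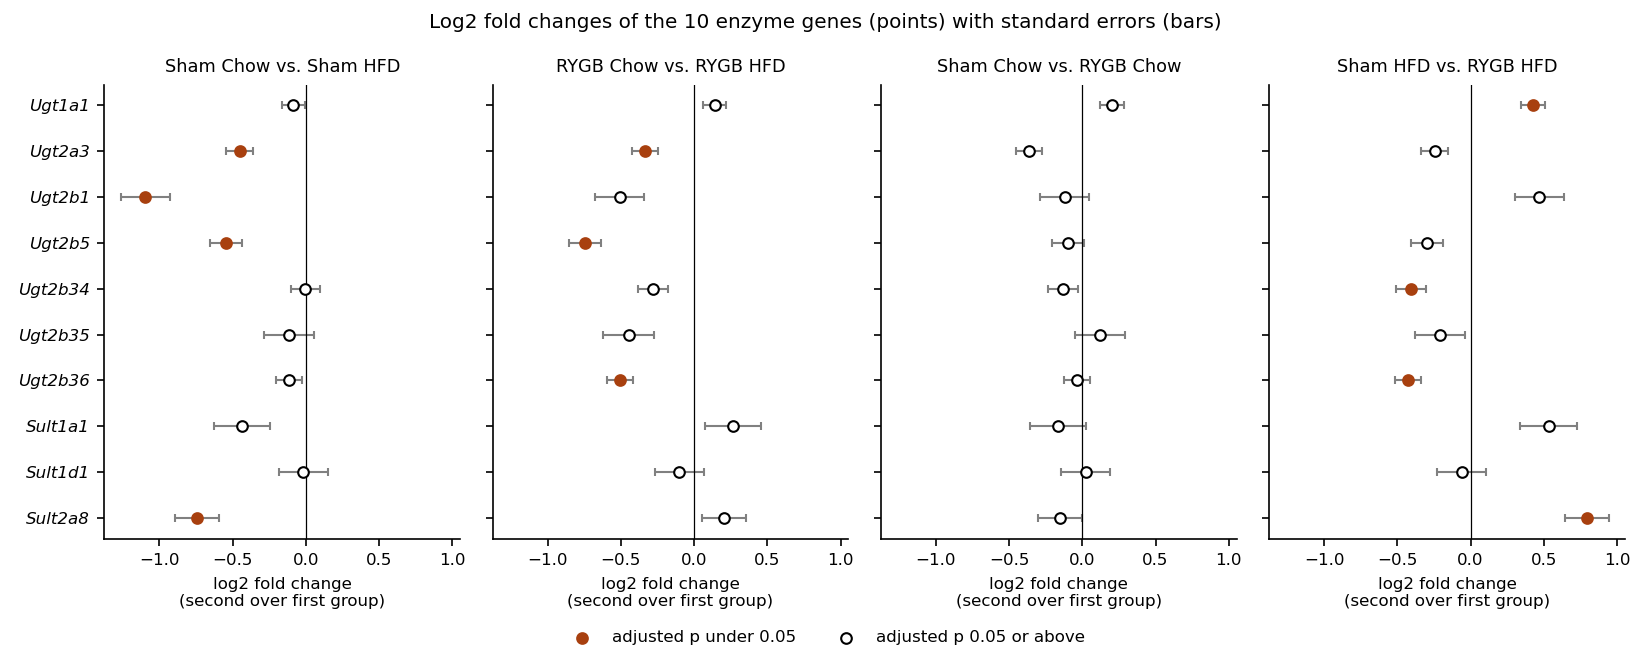
Log2 fold change of each of the 10 genes (second over first named group, x axis) with its standard error (bars) in the 4 comparisons, filled where the adjusted p of edgeR was under 0.05. Filled points lie left of 0 for 4 genes in Sham Chow vs. Sham HFD and for 3 in RYGB Chow vs. RYGB HFD, on both sides in Sham HFD vs. RYGB HFD, and there are 0 in Sham Chow vs. RYGB Chow.

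Ugt1a1 (ENSMUSG00000089960) encodes the enzyme that conjugates bilirubin. Its levels in Sham Chow replicates 1 to 5 were 107, 93.5, 101, 112 and 101 CPM, and in RYGB Chow 119, 130, 102, 119 and 122 CPM. In Sham HFD they were 107, 91.9, 96.3, 95.3 and 94.9 CPM, and in RYGB HFD 117, 124, 155, 132 and 125 CPM. Every RYGB HFD mouse was above every Sham HFD mouse, and 1 of them, replicate 3, was the highest of all 20. The means were 97.1 ± 5.69 and 131 ± 14.7 CPM (SD, n = 5), a rise of 34.5% (log2 fold change 0.43, SE 0.08, adjusted p = 0.00102 in edgeR). On chow the log2 fold change with surgery was 0.20 (SE 0.08, adjusted p = 0.359), and the interaction of 0.23 (SE 0.11, adjusted p = 0.262) did not pass. Reads from the shared later exons of the Ugt1a genes cannot be assigned to 1 of them, and how the counting treated them is not stated in the sources used here. Ugt1a8, with 59.2% of its exon bases shared in this way, had 0 to 2 counts in a mouse. Reads from the shared exons were therefore not counted for every Ugt1a gene. The 9 Ugt1a genes summed to 210 ± 10.6 CPM in Sham HFD and 232 ± 25.4 CPM in RYGB HFD.

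Ugt2a3 (ENSMUSG00000035780), a UGT of liver and intestine, was highest in Sham Chow and lowest in RYGB HFD. The Sham Chow mice had 409, 323, 378, 346 and 375 CPM and the RYGB Chow mice 258, 322, 233, 293 and 315 CPM. The Sham HFD mice had 304, 262, 265, 262 and 244 CPM and the RYGB HFD mice 229, 205, 225, 239 and 229 CPM. Sham Chow lay above each other group in every mouse, RYGB Chow overlapped Sham HFD, and every RYGB HFD mouse was below every Sham HFD mouse. The fall with HFD was 27.0% in sham mice, from 366 ± 33.1 to 268 ± 22.2 CPM (log2 fold change -0.45, SE 0.09, adjusted p = 0.00140). In RYGB mice the log2 fold change was -0.33 (SE 0.09, adjusted p = 0.0411), and this call was lost in 3 of 8 other settings and, with adjusted p of 0.0508 to 0.0915, when any 1 of 11 mice was left out (RYGB Chow 2, 4 and 5, Sham HFD 2, 3 and 4, and each RYGB HFD mouse). With surgery the log2 fold change was -0.37 on chow (adjusted p = 0.148, exact permutation p = 0.00794, the smallest that 252 splits of 5 against 5 allow) and -0.25 on HFD (adjusted p = 0.0656).

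The Ugt2b enzymes conjugate steroids, bile acids and many drugs. Together the 7 Ugt2b genes summed to 3075 ± 384 CPM in Sham Chow, 2912 ± 257 CPM in RYGB Chow, 2362 ± 227 CPM in Sham HFD and 2019 ± 170 CPM in RYGB HFD. Their members followed different patterns.

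Ugt2b1 (ENSMUSG00000035836) showed the largest change of the 10 genes in a pairwise comparison. Sham Chow mice had 745, 614, 554, 450 and 795 CPM and RYGB Chow mice 580, 642, 403, 758 and 522 CPM. Sham HFD mice had 365, 281, 281, 311 and 239 CPM and RYGB HFD mice 330, 375, 415, 521 and 404 CPM. All Sham HFD mice were below all mice of both chow groups, whereas the RYGB HFD mice overlapped every other group. The mean fell from 632 ± 140 CPM in Sham Chow to 295 ± 46.6 CPM in Sham HFD, which is 2.14-fold (log2 fold change -1.10, SE 0.17, adjusted p = 1.39e-04). In RYGB mice the same diet comparison gave -0.51 (SE 0.17, adjusted p = 0.0963). It passed in 1 of 8 other settings (DESeq2, adjusted p = 0.0410) and in 1 of 20 fits without 1 mouse (without RYGB Chow replicate 3, 0.0389). RYGB HFD relative to Sham HFD gave 0.47 (SE 0.17, adjusted p = 0.0590), and the interaction was 0.59 (SE 0.24, adjusted p = 0.153).

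Ugt2b5 (ENSMUSG00000054630) fell with HFD in both surgical arms. Sham Chow mice had 952, 1108, 823, 796 and 967 CPM and RYGB Chow mice 676, 802, 1066, 881 and 908 CPM. Sham HFD mice had 710, 559, 672, 665 and 575 CPM and RYGB HFD mice 480, 532, 539, 548 and 485 CPM. The HFD mice were below the chow mice of the same surgery without overlap, and RYGB HFD was below Sham HFD without overlap. The fall was 31.5% in sham mice (log2 fold change -0.55, SE 0.11, adjusted p = 0.00159) and 40.4% in RYGB mice (-0.75, SE 0.11, adjusted p = 5.49e-04), and the difference of -0.20 between them did not pass the interaction test (adjusted p = 0.497). RYGB HFD relative to Sham HFD gave -0.30 (SE 0.11, adjusted p = 0.0657). The coding bases of Ugt2b5 are 97.0% identical to those of Ugt2b38, with an identical run of 443 bases, and 94.7% to those of Ugt2b37, so reads could be split among them. The 3 genes summed to 962 ± 132 (sham) and 896 ± 157 CPM (RYGB) on chow and to 658 ± 69.96 (sham) and 533 ± 34.1 CPM (RYGB) on HFD, the same order as Ugt2b5 alone.

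Ugt2b36 (ENSMUSG00000070704) was lower in RYGB HFD than in the other 3 groups. Sham Chow mice had 776, 768, 601, 656 and 726 CPM and RYGB Chow mice 572, 709, 732, 654 and 776 CPM. Sham HFD mice had 716, 584, 659, 686 and 611 CPM and RYGB HFD mice 463, 475, 528, 503 and 453 CPM. The first 3 groups overlapped one another, and all RYGB HFD mice lay under every other mouse. With surgery on HFD the mean fell by 25.6%, from 651 ± 53.8 to 485 ± 30.8 CPM (log2 fold change -0.43, SE 0.09, adjusted p = 0.00255), and with HFD after RYGB by 29.6% (-0.51, SE 0.09, adjusted p = 0.00286). In sham mice HFD gave -0.12 (SE 0.09, adjusted p = 0.371). The interaction was -0.39 (SE 0.13, adjusted p = 0.0802). It passed in 2 of 7 other settings, DESeq2 (adjusted p = 0.0332) and scaling by library size only (0.0242). Of 20 fits without 1 mouse, 1 passed, that without RYGB Chow replicate 1 (0.0390).

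Ugt2b34 (ENSMUSG00000029260) had Sham HFD levels of 626, 487, 596, 531 and 558 CPM and RYGB HFD levels of 440, 414, 487, 417 and 349 CPM. These touch, the highest RYGB HFD mouse (486.7 CPM) standing just above the lowest Sham HFD mouse (486.6 CPM). The fall of 24.6% gave a log2 fold change of -0.41 (SE 0.10, adjusted p = 0.00817). Sham Chow mice had 570, 705, 490, 496 and 544 CPM and RYGB Chow mice 483, 485, 555, 530 and 510 CPM, which overlapped each other and Sham HFD. Between Sham Chow (561 ± 87.0 CPM) and Sham HFD (559 ± 54.4 CPM) the log2 fold change was -0.00 (SE 0.10, adjusted p = 0.985).

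Ugt2b35 (ENSMUSG00000035811) spread widely within groups and passed the test in 0 comparisons. Its levels were 290, 213, 196, 218 and 157 CPM in Sham Chow and 163, 223, 283, 274 and 227 CPM in RYGB Chow. In Sham HFD they were 219, 169, 198, 226 and 179 CPM and in RYGB HFD 169, 189, 223, 165 and 113 CPM. All 4 groups overlapped, and the comparison with the largest change, RYGB HFD relative to RYGB Chow, gave -0.45 (SE 0.17, adjusted p = 0.158).

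**Figure D3:**
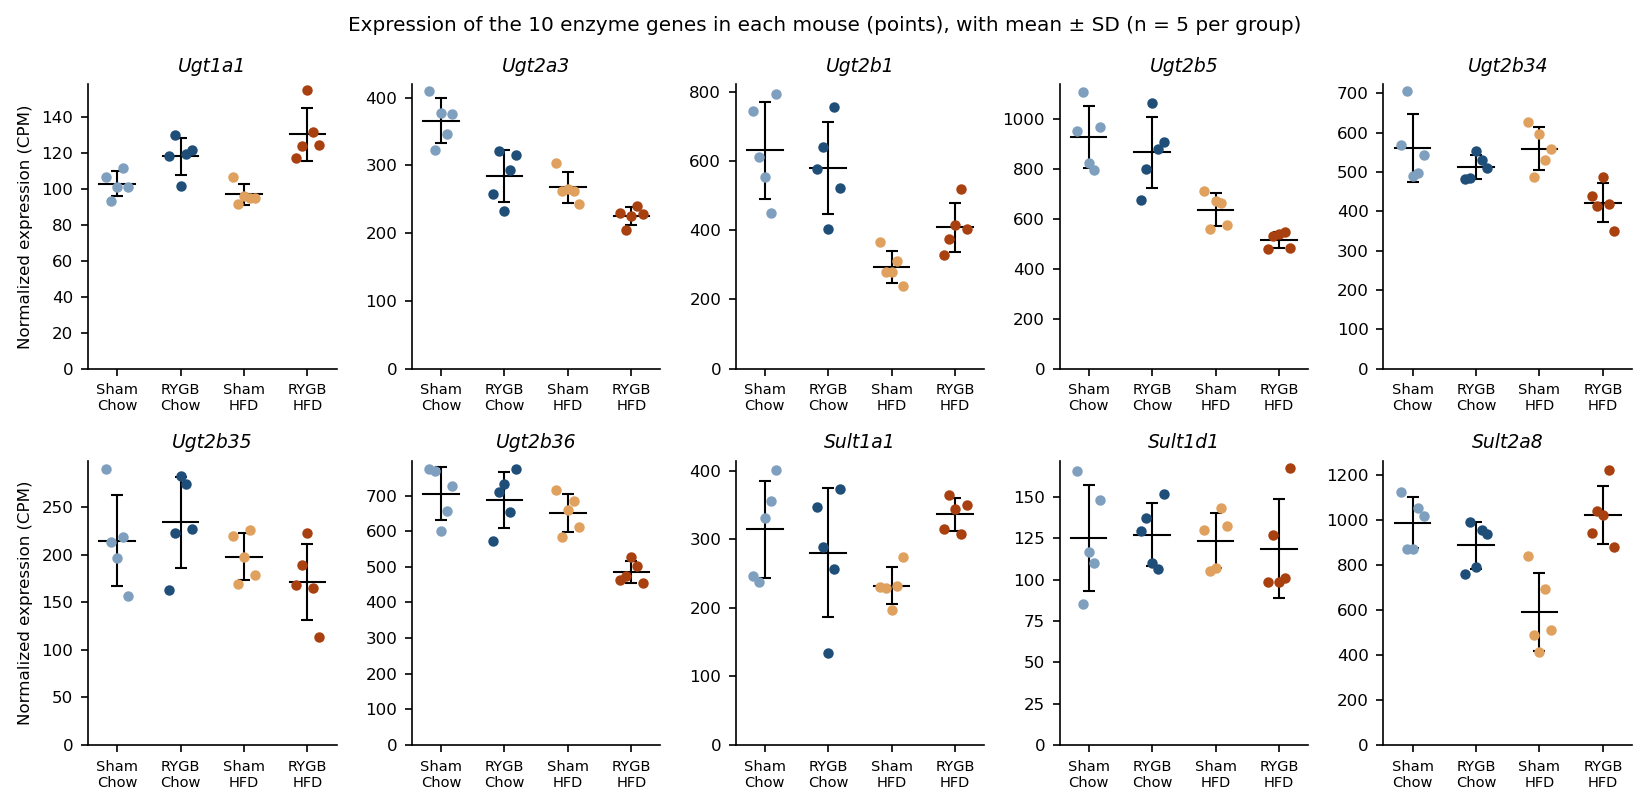
Normalized expression (CPM, y axis from 0) of each of the 10 genes in every mouse (points), with the group mean and SD (black lines, n = 5). Sult2a8 is lowest in Sham HFD (590 CPM), Ugt2b36 in RYGB HFD (485 CPM) and Ugt1a1 is highest in RYGB HFD (131 CPM), while Sult1d1 means stay between 119 and 127 CPM.

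Sult2a8 (ENSMUSG00000030378), which sulfates bile acids, was the 1 gene of the 10 that passed the interaction test. Sham Chow mice had 1123, 869, 873, 1054 and 1019 CPM and RYGB Chow mice 762, 991, 791, 954 and 938 CPM. Sham HFD mice had 839, 490, 413, 693 and 512 CPM and RYGB HFD mice 942, 1040, 1022, 1222 and 881 CPM. All 5 Sham HFD mice were below every Sham Chow and every RYGB HFD mouse, with the widest relative spread of the 4 groups (a coefficient of variation of 29.3%). In sham mice it was 40.3% lower on HFD than on chow (log2 fold change -0.74, SE 0.15, adjusted p = 0.00165), and RYGB HFD was 1.73-fold above Sham HFD (0.79, SE 0.15, adjusted p = 0.00112). With chow the surgical comparison gave -0.15 (SE 0.15, adjusted p = 0.763), and after RYGB the diet comparison gave 0.20 (SE 0.15, adjusted p = 0.503). The interaction was 0.95 (SE 0.21, adjusted p = 0.0136) and passed in all 7 other settings and in all 20 fits that left out 1 mouse.

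Sult1a1 (ENSMUSG00000030711), the main phenol sulfotransferase, had 231, 229, 197, 232 and 274 CPM in Sham HFD and 315, 365, 344, 308 and 350 CPM in RYGB HFD. Every RYGB HFD mouse was above every Sham HFD mouse. The rise from 232 ± 27.2 to 336 ± 24.1 CPM gave a log2 fold change of 0.53 (SE 0.19, adjusted p = 0.0634 in edgeR, exact permutation p = 0.00794). The chow groups were wider, with 246, 238, 331, 356 and 401 CPM in Sham Chow and 347, 289, 133, 257 and 374 CPM in RYGB Chow, where replicate 3 was the lowest of all 20 mice. These groups enter the shared estimate of the spread, and without RYGB Chow replicate 3 the adjusted p of the HFD comparison was 0.00833. This was the 1 of 20 fits without 1 mouse that passed, and 2 of 8 other settings passed.

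Sult1d1 (ENSMUSG00000029273), a sulfotransferase of phenols and catecholamines, had means of 125 ± 31.9 (sham) and 127 ± 19.02 CPM (RYGB) on chow and of 124 ± 16.8 (sham) and 119 ± 29.9 CPM (RYGB) on HFD. Single mice ran from 85.0 to 168 CPM, and all groups overlapped. Its adjusted p was 0.815 or above in each comparison, with log2 fold changes from -0.10 to 0.02 and SE of 0.17.

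The 10 genes did not vary together across mice as one set. Over the 20 mice, with log2(CPM + 0.5), Pearson's r was 0.88 between Ugt2b5 and Ugt2b36 and 0.83 for their deviations from group means, while it was -0.30 and -0.62 between Ugt2b5 and Sult1a1. The mice share libraries and scaling, so these are descriptions. The tested gene most like each of the 10 was Rbm4b for Ugt1a1 (r = 0.86), Cyp2b10 for Ugt2a3 (0.89), Serpina3k for Ugt2b1 (0.93), Prdx1 for both Ugt2b5 and Ugt2b36 (0.90 and 0.90), Bet1 for Ugt2b34 (0.86), Ikbkg for Ugt2b35 (0.79), Fah for Sult1a1 (0.89), 9430038I01Rik for Sult1d1 (0.75) and Susd4 for Sult2a8 (0.92), each over 20 mice. For Cyp2b10, a phenobarbital-inducible P450, the r of deviations from group means with Ugt2a3 was 0.48, and for Fah with Sult1a1 it was 0.90. Cyp2b10 had a median of 0 CPM in RYGB HFD, so its r values include a group at the floor.

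Beyond the 10 genes, 9 of 15 other UGT genes and 4 of 18 other SULT genes passed the filter on low counts. Ugt1a9, a UGT of phenols whose later exons are those of Ugt1a1, went from 40.2 ± 8.68 CPM in Sham Chow to 19.2 ± 6.47 CPM in Sham HFD (log2 fold change -1.06, SE 0.22, adjusted p = 0.00200). After RYGB it went from 62.7 ± 7.13 CPM on chow to 15.4 ± 5.03 CPM on HFD, a 4.09-fold fall (log2 fold change -2.03, SE 0.23, adjusted p = 2.17e-05). The interaction of -0.97 (SE 0.31, adjusted p = 0.0752 in edgeR) did not pass, and it passed in 2 of 7 other settings. Of the same list, Ugt1a6b fell in RYGB HFD relative to Sham HFD (log2 fold change -0.50, adjusted p = 0.00458), as did Ugt3a1 (-0.40, adjusted p = 0.0108), which was higher in Sham HFD than in Sham Chow (0.37, adjusted p = 0.0138). Among SULTs, Sult1c2 rose in Sham HFD relative to Sham Chow (0.56, adjusted p = 0.0457), a call kept in 6 of 8 other settings and 9 of 20 fits without 1 mouse. It was lost, with adjusted p of 0.0519 to 0.110, without Sham Chow 1, 2, 3 or 5, Sham HFD 2, 3, 4 or 5, RYGB Chow 4 or RYGB HFD 1 or 4. Sult2a7 fell in RYGB HFD relative to Sham HFD, from 2.29 ± 0.968 to 0.608 ± 0.213 CPM (-1.90, adjusted p = 0.00960). No RYGB mouse was above 1.08 CPM, so Sult2a7 passed the filter through sham mice only, and its call is partly set by that. The lowest Sham HFD mouse, at 0.870 CPM, lay below the highest RYGB HFD mouse, at 0.922 CPM. Sult2a1, Sult1e1 and Sult3a1, sulfotransferases of bile acids, estrogens and amines, had at most 1, 15 and 11 counts in a mouse, and Sult2a4, Sult2a5 and Sult2a6 had 0 counts in all 20 mice.

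Of 7 tested genes for making and moving UDP-glucuronic acid or removing the products and conjugates, 4 fell in RYGB HFD relative to Sham HFD and 0 rose. Among all genes, 7.9% fell and 8.54% rose in this comparison. Ugdh, the dehydrogenase that makes UDP-glucuronic acid, went from 216 ± 23.5 CPM in Sham HFD to 117 ± 19.96 CPM in RYGB HFD (log2 fold change -0.89, SE 0.11, adjusted p = 2.42e-05), and also fell with HFD after RYGB (-0.76, SE 0.11, adjusted p = 5.31e-04). Ugp2, which makes UDP-glucose, fell by 0.43 on the log2 scale (adjusted p = 0.00622), Entpd5, a nucleoside diphosphatase of the endoplasmic reticulum, by 0.86 (adjusted p = 3.71e-05) and Gusb, the lysosomal glucuronidase, by 0.37 (adjusted p = 0.00345). In Sham HFD relative to Sham Chow, 2 of the 7 rose (Entpd5, 0.50, adjusted p = 0.00382, and Gusb, 0.25, adjusted p = 0.0333) and 0 fell. Of all genes, 10.9% rose and 10.7% fell there. After RYGB, 1 of the 7, Ugdh, was lower on HFD than on chow, against 1.65% of all genes.

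In RYGB HFD relative to Sham HFD, 7.9% of all genes fell and 8.54% rose. Of 9 tested genes of sulfate supply and PAPS handling, 3 fell and 0 rose there. These were Papss1, a PAPS synthase (log2 fold change -0.65, adjusted p = 0.00871), Bpnt1, which degrades the spent donor (-0.28, adjusted p = 0.00173), and Suox, which oxidises sulfite to sulfate (-0.40, adjusted p = 0.0121). Slc26a1, a sulfate carrier, rose with HFD after RYGB (0.33, adjusted p = 0.0274), and 0 of the 9 passed in Sham Chow vs. Sham HFD. Of all genes, 10.9% rose and 10.7% fell in the latter comparison.

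Of 11 tested transporters of conjugates and bile acids, 3 rose and 2 fell in RYGB HFD relative to Sham HFD. The shares of all genes were 8.54% and 7.9%. Abcc3, which exports glucuronides to blood, fell from 395 ± 31.8 to 190 ± 35.6 CPM (log2 fold change -1.06, SE 0.13, adjusted p = 1.94e-05) and was also lower in RYGB HFD than in RYGB Chow (-0.96, adjusted p = 2.41e-04). Abcc4, a second basolateral exporter, fell by 0.91 (adjusted p = 0.0150) at levels of 4.14 and 2.22 CPM. The risers were the bile salt pump Abcb11 (0.58, adjusted p = 0.00233), the bile acid importer Slc10a1 (0.57, adjusted p = 0.00162) and the organic anion importer Slco1a1 (3.12, SE 0.53, adjusted p = 4.06e-04). Slco1a1 ran from 10.4 to 234 CPM in Sham HFD mice and from 435 to 724 CPM in RYGB HFD mice. In Sham HFD relative to Sham Chow, Slco1a1 (-2.85, adjusted p = 7.64e-04) and Slc10a1 (-0.59, adjusted p = 0.00115) fell, while Abcc2 (0.29, adjusted p = 0.0332) and Abcc4 (0.80, adjusted p = 0.0238) rose.

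**Figure D4:**
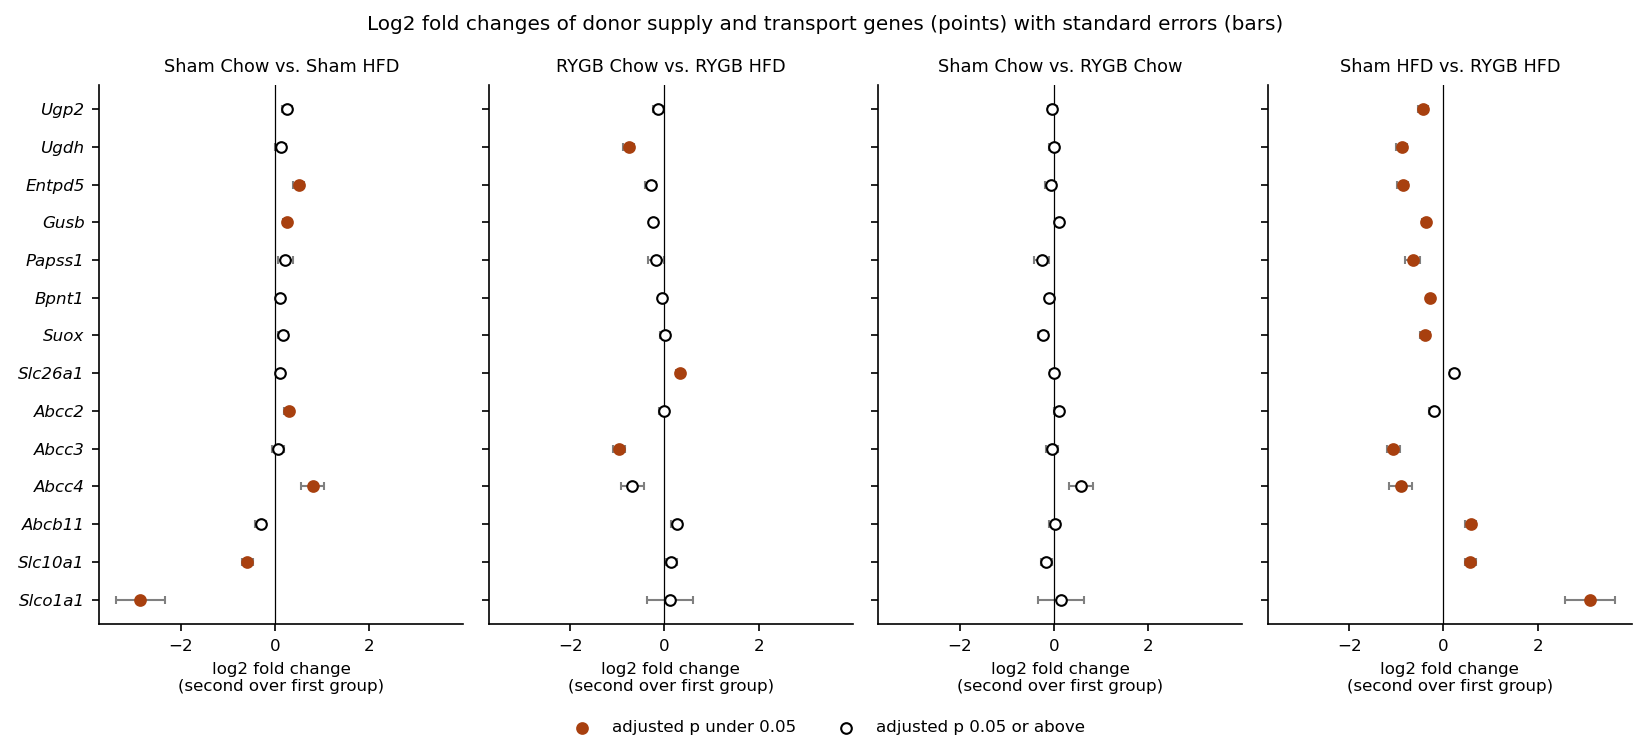
Log2 fold change (second over first named group, x axis) with its standard error (bars) of the donor supply and transport genes that passed in at least 1 comparison, filled where the adjusted p of edgeR was under 0.05. Sham HFD vs. RYGB HFD has the most filled points, with Ugdh at -0.89, Abcc3 at -1.06 and Slco1a1 at 3.12.

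Of 17 tested transcription factors and receptors known to act on these genes, 3 rose and 1 fell in RYGB HFD relative to Sham HFD. Among all genes, 8.54% rose and 7.9% fell, so 1 fall in 17 is near that share. Ahr, the aryl hydrocarbon receptor, rose by 0.54 on the log2 scale (adjusted p = 0.0267), Hnf4a by 0.49 (adjusted p = 0.0166) and Rxra by 0.29 (adjusted p = 0.0245). Nfe2l2, which encodes NRF2, a transcription factor of the oxidant response, fell by 0.35 (adjusted p = 0.0467). It was higher in Sham HFD than in Sham Chow (0.47, adjusted p = 0.00833). The fall of Nfe2l2 was kept in 6 of 8 other settings and 10 of 20 fits without 1 mouse, and was lost, with adjusted p of 0.0510 to 0.112, without Sham Chow 1, RYGB Chow 4, any Sham HFD mouse or RYGB HFD 2, 3 or 5. In Sham HFD relative to Sham Chow, Hnf4a (-0.43, adjusted p = 0.0267), Cebpa (-0.30, adjusted p = 0.0156) and Foxa3 (-0.56, adjusted p = 0.0369) fell. In RYGB Chow vs. RYGB HFD and in Sham Chow vs. RYGB Chow, 0 of the 17 passed in edgeR, with 4 and 1 at an unadjusted p under 0.05. Of all genes, 1.99% rose and 1.65% fell in the first, and 0.0488% rose and 0.00814% fell in the second.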

How the data were processed

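Liver poly-A RNA of 20 mice was sequenced from both ends at 150 bases. Per the submitters' processing notes and methods, the authors trimmed reads with Trimmomatic 0.36, checked them with FastQC, aligned them to mm10 with HISAT2 2.1.0 and counted them per gene with featureCounts 1.5.0-p3. The deposited table holds raw counts per Ensembl gene. How strand, multi-mapped reads and reads shared by genes were counted is not given in the sources used here.

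Genes above 2 CPM in at least 3 mice were kept (12289). The 4 groups entered 1 quasi-likelihood model of edgeR 4.0.16 (R 4.3.3, TMM scaling), with 4 contrasts and the interaction, and p-values were adjusted by Benjamini-Hochberg over all genes tested. A call is an adjusted p under 0.05. The fit was tested on simulated data. CPM are TMM-scaled, and errors are SD over 5 mice. The exact permutation test is two-sided over 252 splits. Calls were recomputed with DESeq2 1.42.0, limma-voom (limma 3.58.1), other scalings, filters and models, and without each mouse.

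The members and lists were chosen with earlier results of these data known. Named genes are the 10 members, the genes of the UGT, SULT, donor supply, transport and regulator lists with an adjusted p under 0.05 in any comparison, and the gene most correlated with each member. Gene positions and coding identities come from GENCODE M21, promoters from RefSeq. The planned protein identities were replaced by coding identities, because no protein sequences were used here.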

Additional observations from a re-analysis of the deposited data

Results flagged for a closer look

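Of the 10 enzyme genes and the named list genes, 35 together, 8 passed the interaction test of edgeR (adjusted p under 0.05), against 5.06% of all genes. In these 8 the difference between RYGB and sham mice was not the same on both diets. The test includes the heavier Sham HFD group, so surgery and diet cannot be told apart from body weight. List genes were named because they passed a comparison or this test, so the count is partly set by that choice. Each value is the log2 fold change of RYGB over sham on HFD minus that on chow. It was 0.95 for Sult2a8 (adjusted p = 0.0136), 2.98 for Slco1a1 (adjusted p = 0.0185) and 0.73 for Slc10a1 (adjusted p = 0.0118). It was -0.88 for Ugdh (adjusted p = 0.00299), -0.79 for Entpd5 (adjusted p = 0.00732), -0.48 for Gusb (adjusted p = 0.0200), -1.02 for Abcc3 (adjusted p = 0.00333) and -1.48 for Abcc4 (adjusted p = 0.0182). The Gusb call was lost without a filter on low counts (adjusted p = 0.0511). Among the 40 sets of 5 mice given by the 10 enzyme genes in 4 groups, 0 had a mouse beyond Dixon's 95% limit.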

How the results depend on the processing

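With 8 other settings and 20 fits that each left out 1 mouse, 0 of the called log2 fold changes reversed. In Sham Chow vs. RYGB Chow the count of the 10 genes called was 0, and became 1 with DESeq2 and 2 at an unadjusted p under 0.05. In Sham HFD vs. RYGB HFD the count of 4 became 8 with DESeq2, with a model of the 2 groups only and at an unadjusted p, 6 with library size only or a filter at 5 CPM, and 4 to 8 with 1 mouse left out (8 without RYGB Chow replicate 3). In Sham Chow vs. Sham HFD it stayed at 4 to 5. In RYGB Chow vs. RYGB HFD the count of 3 became 6 at an unadjusted p, 4 with DESeq2 (Ugt2b1 gained), 2 without a filter or with the model of 2 groups (Ugt2a3 lost), and 2 to 4 with 1 mouse left out. For the interaction the count of 1 became 2 with DESeq2, 2 with library size only, 4 at an unadjusted p, and 1 to 2 with 1 mouse left out (2 without RYGB Chow replicate 1). The cause was not tested. Scaling by library size only moved the median of all genes by 0.13 in Sham Chow vs. Sham HFD and by -0.14 in the interaction.

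Replicate numbers gave no sign of pairing the mice. Over 30 same-number pairs the correlation of deviations ran from -0.26 to 0.17, with 5 over 0.1, and 3 of 20 mice correlated best with their own number. Whether same-numbered mice shared a cage or a batch was not tested. With a replicate block the counts were 0, 4, 4, 2 and 1 in the order above. Other calls were lost as follows. In Sham Chow vs. Sham HFD these were Foxa3 (library size only, the block, and without Sham Chow 3 or 5 or Sham HFD 1, 2, 3 or 5, adjusted p 0.0604 to 0.141), Gusb (no filter, and without Sham Chow 1, 3, 4 or 5 or Sham HFD 2, 4 or 5, 0.0545 to 0.114), Abcc2 (no filter, and without Sham Chow 3, 4 or 5 or Sham HFD 1, 4 or 5, 0.0509 to 0.0902), Hnf4a (library size only, and without Sham Chow 2 or 3 or Sham HFD 1, 2 or 5, 0.0559 to 0.118), Abcc4 (without Sham Chow 5 or Sham HFD 4, 0.0543 and 0.0554) and Cebpa (library size only, 0.153). In Sham HFD vs. RYGB HFD they were Ahr (library size only, and without Sham HFD 2, 3 or 5 or RYGB HFD 1 or 3, 0.0505 to 0.0752), Rxra (library size only, no filter, and without Sham HFD 1 or 2 or RYGB HFD 1 or 5, 0.0519 to 0.234) and Hnf4a (library size only and without RYGB HFD 5, 0.0594 and 0.0532). In RYGB Chow vs. RYGB HFD it was Slc26a1 (no filter, the model of 2 groups, and without RYGB Chow 3 or RYGB HFD 1 or 3, 0.0598 to 0.0974). DESeq2 gave no adjusted p for Slco1a1. Each of the 10 genes had at least 1541 counts in every mouse, so the spread between mice sets the precision. The fit estimates that spread over all 20 mice together.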

Other observations

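Of 12 tested genes that serve as targets of the receptors and factors above, 6 fell and 2 rose in Sham HFD relative to Sham Chow, 5 fell and 2 rose in RYGB HFD relative to Sham HFD, and 4 fell and 0 rose in RYGB HFD relative to RYGB Chow. Of all genes, 10.7%, 7.9% and 1.65% fell and 10.9%, 8.54% and 1.99% rose, in the same order. Cyp2b10 went from 10.4 CPM in Sham Chow to 1.85 CPM in Sham HFD, Cyp2c29 from 1625 to 567 CPM and Cyp3a11 from 5397 to 799 CPM. Cyp3a11, a major P450 of drug and steroid oxidation, was at 6125 CPM in RYGB Chow and 480 CPM in RYGB HFD (log2 fold change -3.67, adjusted p = 2.06e-09 in edgeR).

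Of 10 genes of the periportal zone, 6 fell and 0 rose in Sham HFD relative to Sham Chow, and of 10 genes of the pericentral zone 3 rose and 0 fell. Among all genes, 10.7% fell and 10.9% rose. Glul, the glutamine synthetase that marks hepatocytes around the central vein, went from 764 to 1388 CPM (log2 fold change 0.86, adjusted p = 8.94e-05), and the periportal Cyp2f2 from 934 to 533 CPM (-0.81, adjusted p = 1.51e-04). In RYGB HFD relative to Sham HFD, 1 pericentral gene rose and 2 fell, and 2 periportal genes rose and 1 fell. The shares of all genes were 8.54% higher and 7.9% lower there.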
